A study of Mus musculus with 12 samples.

Results

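Major histocompatibility complex (MHC) class I expression was examined in mouse adipocytes with raised or lowered SRA, the steroid receptor RNA activator, through 10 genes chosen by their place in the pathway. They are the heavy chains H2-K1 and H2-D1, their shared light chain B2m, the peptide transporter subunits Tap1 and Tap2, the loading chaperone Tapbp, the inducible proteasome subunits Psmb8, Psmb9 and Psmb10, and the class I transactivator Nlrc5. All probe sets annotated to 1 of these symbols alone were taken, which gave 27 of the 45101 probe sets on the array. The 3 probe sets that name a member together with other genes were left out. Per gene, the probe set with the highest mean over all 12 arrays stands for the gene below and is called its lead probe set. Affymetrix mouse genome arrays were hybridized with RNA from 4 groups of 3 arrays each, labelled as biological replicates. Values are log2 expression values, so that a difference of 1 is a doubling.

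In the gain-of-function pair, ST2 adipocytes carried pMSCV-SRA, a retrovirus with human SRA isoform 2 cDNA, or the empty vector (control), both after puromycin selection of infected cells, and were harvested at day 4. In the loss-of-function pair, 3T3-L1 adipocytes carried the hairpin pSuperior-shSRA-2 or pSuperior-shcontrol and were harvested at day 8. The labels call the second of these an empty vector, and the methods name it a control hairpin. ST2 is a bone marrow stromal line whose strain is given as BC8, and 3T3-L1 is a preadipocyte line given as Swiss albino. All 4 groups received the same MDIT cocktail of 0.5 mM 3-isobutyl-1-methylxanthine, 1 µM dexamethasone, 0.167 µM insulin and 5 µM troglitazone. Only 1 hairpin was used on arrays, so that the knockdown rests on a single target site. The comparison asks which genes respond to SRA, from both sides.

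MHC class I molecules show fragments of a cell's own proteins to cytotoxic T cells. Proteasomes cut the proteins, the TAP transporter carries the fragments into the endoplasmic reticulum, and tapasin helps to load them onto a heavy chain bound to β2-microglobulin. Nearly all nucleated cells, fat cells among them, make class I, and interferons raise most of its genes together through IRF and STAT factors and NLRC5.

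The labels were checked first. Sra1 read 9.46, 9.20 and 9.62 in shSRA adipocytes, against 11.86, 11.67 and 11.84 in shControl adipocytes, a log2 fold change of -2.36 (SE 0.18, limma adjusted p = 5.58e-07). With this probe set of the mouse gene, ST2 adipocytes read 11.13, 11.13 and 11.44 with SRA, against 11.14, 10.67 and 11.24 with the vector (log2 fold change 0.22, adjusted p = 0.484), and whether it detects the human transgene is not known here. ST2 control replicate 2 stood apart from its group. Each array was compared with the average of its fellow replicates, itself left out. Bright probe sets were the 14314 with a mean over all arrays of 8 or more on the log2 scale. Over these the median difference was -0.43 for ST2 control replicate 2, against -0.07 to 0.24 on the other 11 arrays. Over the member lead probe sets it was -0.59 for ST2 control replicate 2, against -0.19 to 0.28. Values without this array are given beside the results it moves.

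The 12 measured adipocyte markers had mean log2 values of 12.36 to 12.48 per array with SRA and 11.77 to 12.19 in ST2 controls, and 13.05 to 13.16 with shSRA and 12.99 to 13.14 with shControl. The 9 measured class II and professional antigen-presenting cell genes averaged 6.19 to 6.28 with SRA, 6.07 to 6.20 in ST2 controls, 5.998 to 6.10 with shSRA and 6.04 to 6.22 with shControl. The 11 measured macrophage and blood cell markers averaged 6.09 to 6.31, 5.98 to 6.29, 5.93 to 6.01 and 5.95 to 6.08 in the same order. Of the genes of these last 2 lists only 1 of 9 and 4 of 11 passed the variance filter (a variance above 0.05 over the 12 arrays) and entered the test, and none was called in either SRA comparison with all arrays. The dendritic cell and macrophage gene Cd80 had an unadjusted p of 0.016 (lower with SRA). Without ST2 control replicate 2, 1 gene was called higher, Laptm5, a lysosomal protein of blood cells (0.69, adjusted p = 0.027, against 0.38 and 0.332 with all arrays). The part of these lists in the class I values was not tested. The leukocyte antigen Ptprc read between 3.89 and 4.27 and the macrophage antigen Adgre1 between 5.32 and 5.55 on the 12 arrays, against array medians over all probe sets of 6.45 to 6.53. On every array 5 of the 9 and 6 of the 11 genes lay below that median, while 2 (H2-DMa and Cd74) and 3 (Csf1r, Cd3e and Laptm5) lay above it. Cd68, a lysosomal protein of macrophages and other cells, read 8.41 to 8.74 with SRA and 7.80 to 8.48 in ST2 controls (adjusted p = 0.458).

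**Figure D1:**
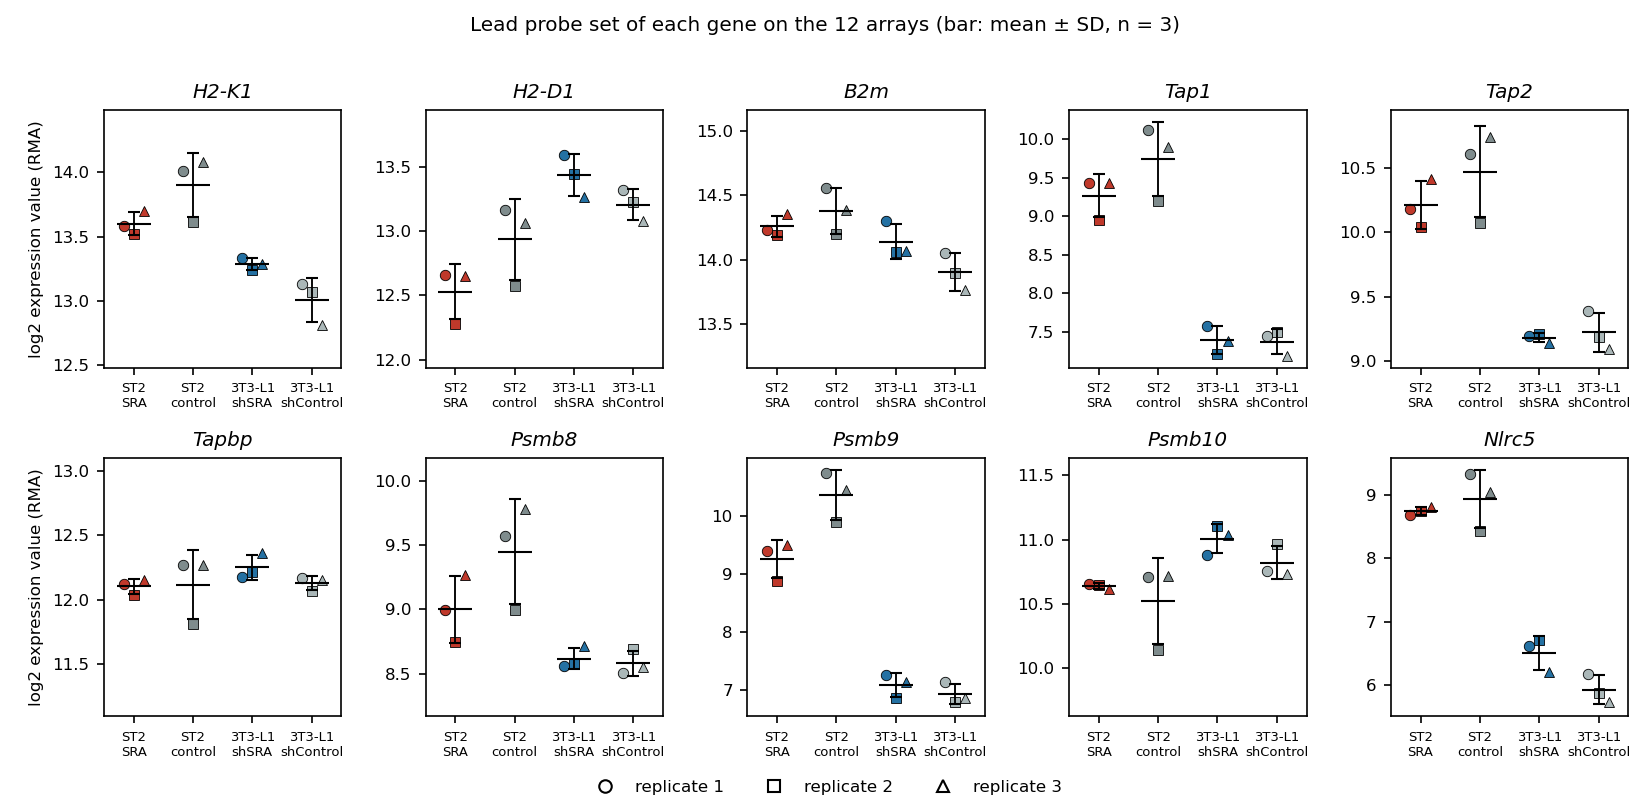
Log2 expression value (vertical axis, a separate range for each gene) of the lead probe set of each of the 10 genes on the 12 arrays, with symbols for replicates 1 to 3 and bars for the mean ± SD of each group (n = 3). Psmb9 is the gene whose 3 SRA arrays (8.88 to 9.51) all lie below the 3 ST2 control arrays (9.90 to 10.74), and ST2 control replicate 2 is the lowest control array for every gene.

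SRA overexpression lowered 1 of the 10 genes past the test, Psmb9, and raised none. Called means a limma adjusted p under 0.05 over the 19068 probe sets that passed a variance filter, of which 5.65% were called lower and 2.33% higher in this comparison, so 1 of 10 is a share near that background. Lead probe sets of 8 genes passed the filter. B2m and Tapbp varied too little to enter the test. Without the adjustment, 4 genes were lower at p under 0.05 (H2-D1, Tap1, Psmb8 and Psmb9), against 10.1% of all tested probe sets. Of the 10 log2 fold changes 9 lay below 0, with a median of -0.28, against a median of 0.06 over all 18194 measured genes. Psmb10 was the exception, at 0.11, and with arrays centred on their bright probe sets it too lay below 0 (-0.01).

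That count rests on ST2 control replicate 2. Without that array 6 genes were lower (H2-K1, H2-D1, Tap1, Tap2, Psmb8 and Psmb9), the median was -0.45, and 9.83% of all tested probe sets were called lower and 2.02% higher. Centring each array on its bright probe sets, which moved the median of all probe sets by -0.12, gave the same 6 genes with 10.6% of probe sets lower. In the fits without any other single array only Psmb9 was called lower. Over all 12 fits without 1 array the smallest changes were -0.21 for H2-K1, -0.28 for H2-D1, -0.28 for Tap1, -0.13 for Tap2 and -0.28 for Psmb8. Their limma adjusted p ran up to 0.525, 0.515, 0.531, 0.699 and 0.486 in the same order.

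**Figure D2:**
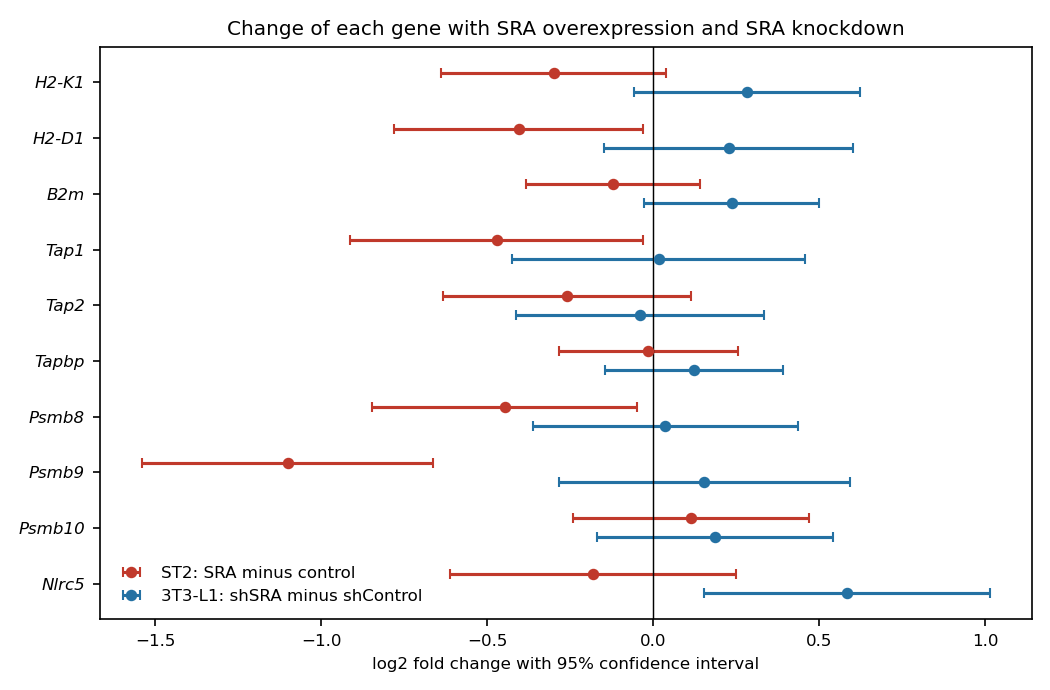
Log2 fold change with its 95% confidence interval (horizontal axis) of the lead probe set of each gene, red for SRA minus control in ST2 adipocytes and blue for shSRA minus shControl in 3T3-L1 adipocytes. Psmb9 in ST2 adipocytes has the interval farthest from 0 (-1.54 to -0.66), and 9 of 10 red points lie below 0 while 9 of 10 blue points lie above it.

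Psmb9 encodes β1i (LMP2), which replaces a standard catalytic subunit in the immunoproteasome and shifts which peptides are cut. It read 9.40, 8.88 and 9.51 in SRA adipocytes, against 10.74, 9.90 and 10.46 in ST2 controls, and the groups did not overlap. The log2 fold change was -1.10 (SE 0.21, adjusted p = 0.00176), a level 2.15-fold lower with SRA. Without ST2 control replicate 2 it was -1.33 (adjusted p = 0.00044), and over the 12 fits that each left out 1 array the adjusted p ran between 0.00044 and 0.0225. In 3T3-L1 adipocytes Psmb9 read 7.26, 6.87 and 7.15 with shSRA, against 7.14, 6.81 and 6.87 with shControl. These groups overlapped (log2 fold change 0.15, 95% interval -0.28 to 0.59, adjusted p = 1). The difference between the effects was -1.26 (SE 0.30, adjusted p = 0.0267), a call that was lost with no variance filter (adjusted p = 0.066) and in 7 of 12 fits that left out 1 array (up to 0.111). In these bulk samples, fewer cells that express a gene and less RNA per cell cannot be told apart.

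Psmb8 (β5i, LMP7) and Psmb10 (β2i, MECL-1) are the other inducible subunits and did not pass the test with all arrays. Psmb8 read 8.99, 8.75 and 9.27 with SRA, against 9.57, 8.99 and 9.78 in ST2 controls, so that the groups overlapped at the low control array. Its log2 fold change was -0.45 (SE 0.19, adjusted p = 0.171) with all arrays and -0.68 (adjusted p = 0.0085) without ST2 control replicate 2. Psmb10 in SRA adipocytes lay within the control range, at 10.66, 10.65 and 10.61, against 10.71, 10.14 and 10.72 in ST2 controls. Its log2 fold change was 0.11 (95% interval -0.24 to 0.47) and turned to -0.08 (adjusted p = 0.754) without that array. The 18 standard proteasome subunits and assembly factors listed for comparison had 0 calls in either direction and a median log2 fold change of 0.10. Only 1 of them passed the variance filter, and its p was not under 0.05 before adjustment either. The brightest were the catalytic subunit Psmb7 at 0.04 and Psmb4 at -0.05.

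By RefSeq annotation Psmb9 and Tap1 lie head to head on chromosome 17, and their promoters are shown because both genes read from 1 shared stretch. The order is Psmb9, Tap1, Psmb8, Tap2 with no other protein-coding gene between neighbours, and other kinds of genes were not looked at. RefSeq promoter windows of 300 bases (250 before the gene start and 50 from it, GRCm38.p6) were given for 8 of the 10 genes. The windows of Psmb9 and Tap1 overlap by 275 bases on opposite strands and their starts lie 226 bases apart. The Psmb9 window below is chr17:34187281-34187580, minus strand, with capitals for TGACG, the core of the X2 element (here on the other strand, as CGTCA), and ATTGG, the core of the Y element, which class I promoters carry.
Psmb9: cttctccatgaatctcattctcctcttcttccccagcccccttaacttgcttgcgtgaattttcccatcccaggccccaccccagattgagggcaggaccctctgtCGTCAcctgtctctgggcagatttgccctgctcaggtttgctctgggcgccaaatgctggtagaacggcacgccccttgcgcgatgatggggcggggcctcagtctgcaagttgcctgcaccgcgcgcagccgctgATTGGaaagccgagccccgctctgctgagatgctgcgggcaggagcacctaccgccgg
The matches of the Psmb9 window lie on opposite strands and start at -144 and -8 from the gene start. They lack the 20-base spacing described below for H2-K1, H2-D1 and B2m. Of 32851 mouse promoter windows of this length, 20.8% hold TGACG and 37.4% hold ATTGG on either strand.

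The transporter genes Tap1 and Tap2 encode the ATP-driven pump for peptides. Tap1 read 9.43, 8.95 and 9.43 with SRA, against 10.12, 9.20 and 9.91 in ST2 controls. The groups overlapped through the low control array, with a log2 fold change of -0.47 (SE 0.21, adjusted p = 0.194), and of -0.74 (adjusted p = 0.011) without it. Tap2 read 10.18, 10.04 and 10.41 with SRA, against 10.60, 10.07 and 10.74 in ST2 controls (log2 fold change -0.26, SE 0.18, adjusted p = 0.408). Without that array Tap2 was at -0.46 (adjusted p = 0.0404). The 3 other Tap1 probe sets ran between -0.39 and 0.06 and none was called. Tapbp, tapasin, read 12.12, 12.04 and 12.15 with SRA, against 12.27, 11.81 and 12.27 in ST2 controls, a difference of -0.01 with an interval of -0.28 to 0.25, and of -0.17 without that array. A second Tapbp probe set gave 0.06.

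In 3T3-L1 adipocytes none of these 3 genes was called. Tap1 read 7.58, 7.21 and 7.38 with shSRA, against 7.45, 7.49 and 7.19 with shControl. Tap2 read 9.20, 9.21 and 9.14 with shSRA, against 9.39, 9.18 and 9.09 with shControl. Their log2 fold changes were 0.02 (95% interval -0.42 to 0.46) and -0.04 (-0.41 to 0.33), and each turned its sign under other settings. Tapbp read 12.17, 12.22 and 12.36 with shSRA, against 12.17, 12.07 and 12.15 with shControl (0.12, interval -0.15 to 0.39), its lowest shSRA array just above the highest shControl array.

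The heavy chain H2-K1 is a classical class I molecule. Its lead probe set read 13.58, 13.52 and 13.70 in SRA adipocytes, against 14.01, 13.62 and 14.08 in ST2 controls, with an overlap at the low control array. The log2 fold change was -0.30 (SE 0.16, adjusted p = 0.287), and -0.44 (adjusted p = 0.0315) without ST2 control replicate 2. All 4 H2-K1 probe sets lay below 0, between -0.51 and -0.30, and the groups did not overlap in 2 of them, against 9.03% of tested probe sets lower without overlap. In 3T3-L1 adipocytes H2-K1 read 13.34, 13.24 and 13.29 with shSRA, against 13.14, 13.07 and 12.81 with shControl. Here the groups did not overlap, yet the log2 fold change of 0.28 was not called (SE 0.16, adjusted p = 1).

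H2-D1, the other classical heavy chain, read 12.65, 12.28 and 12.65 with SRA, against 13.17, 12.57 and 13.06 in ST2 controls. Its lead probe set gave -0.41 (SE 0.18, adjusted p = 0.188), and -0.59 (adjusted p = 0.018) without the low control array. The 9 H2-D1 probe sets ran between -0.50 and 0.16. In 3T3-L1 adipocytes the lead probe set read 13.59, 13.44 and 13.27 with shSRA, against 13.32, 13.22 and 13.08 with shControl (0.23, interval -0.15 to 0.60), and the 9 ran between -0.40 and 0.37. Their signs therefore disagreed in both comparisons. In ST2 the 2 above 0 were 1450170_x_at and 1451934_at, with means of 4.82 and 4.45 over all arrays, and the other 7 lay below 0. In 3T3-L1 these 2 were at -0.03 and -0.02. The others below 0 there were 1452544_x_at (-0.40) and 1425614_x_at (-0.38). They averaged 7.75 and 5.86 in shControl adipocytes, against 13.61 and 13.45 in ST2 controls.

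B2m, the light chain that every class I heavy chain needs at the surface, was outside the variance filter. It read 14.23, 14.19 and 14.35 with SRA, against 14.56, 14.20 and 14.38 in ST2 controls, a log2 fold change of -0.12 (interval -0.38 to 0.14), and of -0.21 without ST2 control replicate 2. In 3T3-L1 adipocytes it read 14.30, 14.06 and 14.06 with shSRA, against 14.05, 13.89 and 13.76 with shControl. All 3 shSRA arrays were above all 3 shControl arrays, with a log2 fold change of 0.24 (interval -0.03 to 0.50). Tested with no variance filter, B2m had an adjusted p of 0.709 for SRA overexpression and of 1 for the knockdown.

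H2-K1, H2-D1 and B2m share a promoter feature, and their windows are shown for it. Class I promoters carry an S-X-Y module, whose X2 part binds CREB-type factors and whose Y part binds NF-Y, with an NF-κB element and an interferon response element nearby. Capitals mark the kB element (GGGA and then CC after any 4 bases), the interferon-type elements GAANNGAAA (in H2-K1 and H2-D1, on the other strand) and its longer form that opens with GAAA (B2m), the X2 core TGACG and the Y core ATTGG, each searched on both strands. The windows are chr17:34000298-34000597 (minus strand) for H2-K1, chr17:35262844-35263143 (plus strand) for H2-D1 and chr2:122147437-122147736 (plus strand) for B2m.
H2-K1: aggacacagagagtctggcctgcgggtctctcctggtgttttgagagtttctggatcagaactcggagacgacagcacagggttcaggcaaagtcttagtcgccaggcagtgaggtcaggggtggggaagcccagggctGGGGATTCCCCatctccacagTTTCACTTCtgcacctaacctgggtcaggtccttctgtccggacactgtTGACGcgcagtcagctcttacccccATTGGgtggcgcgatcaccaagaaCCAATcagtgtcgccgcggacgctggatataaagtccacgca
H2-D1: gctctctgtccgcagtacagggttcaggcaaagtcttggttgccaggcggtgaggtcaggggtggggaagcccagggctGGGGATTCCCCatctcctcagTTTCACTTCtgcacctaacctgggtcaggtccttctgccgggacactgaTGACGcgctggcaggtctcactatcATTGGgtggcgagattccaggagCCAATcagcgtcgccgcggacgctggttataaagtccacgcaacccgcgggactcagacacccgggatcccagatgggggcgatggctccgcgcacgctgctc
B2m: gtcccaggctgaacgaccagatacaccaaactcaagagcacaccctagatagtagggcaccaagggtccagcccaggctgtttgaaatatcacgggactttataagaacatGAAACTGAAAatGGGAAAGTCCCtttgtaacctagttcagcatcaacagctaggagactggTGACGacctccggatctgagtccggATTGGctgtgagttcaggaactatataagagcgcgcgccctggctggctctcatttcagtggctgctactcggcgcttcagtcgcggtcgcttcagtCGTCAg
In each of them TGACG was followed by ATTGG after 20 further bases, a spacing chosen after these letters were seen. It occurred in 31 of 32851 mouse windows (0.0944%), from 27 genes, 3 of them members and 1 more an H2 gene, H2-M3. The kB element was present in 20.7% of all windows, GAANNGAAA in 7.52% and its longer form in 3.44%. H2-K1 has a second annotated start with a window shifted by a few bases, and it held the same matches. The windows of the other 5 genes held neither the kB element nor either interferon-type element, and a GAS element (TTCNNNGAA, in 8.3% of windows) was found in Psmb8. A match is a string of letters and not a measured binding site.

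**Figure D3:**
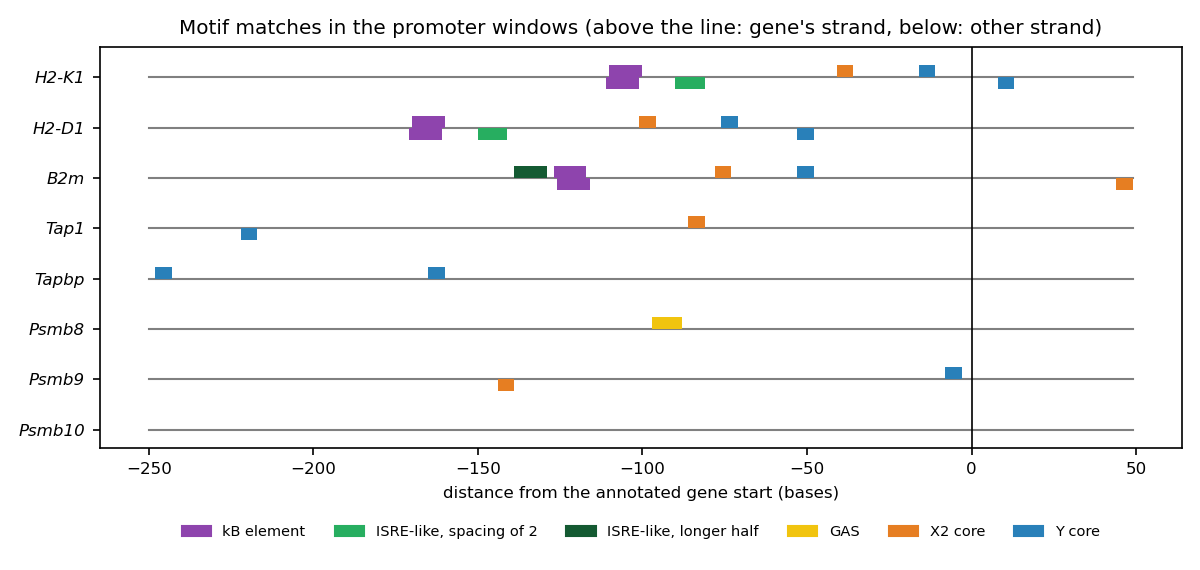
Motif matches along the promoter windows of 8 member genes, with the distance from the annotated gene start in bases on the horizontal axis and matches on the gene's strand above each line and on the other strand below it. H2-K1, H2-D1 and B2m share kB, interferon-type, X2 and Y matches, while Psmb10 has none of the 6 motifs.

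Nlrc5 drives class I genes through the S-X-Y module. It read 8.69, 8.75 and 8.81 with SRA, against 9.33, 8.43 and 9.04 in ST2 controls, so that the SRA arrays lay within the control range only through ST2 control replicate 2 (log2 fold change -0.18, SE 0.21, adjusted p = 0.631). Without that array all 3 SRA arrays were below both controls and the log2 fold change was -0.43 (adjusted p = 0.13). In 3T3-L1 adipocytes it read 6.62, 6.71 and 6.21 with shSRA, against 6.18, 5.88 and 5.73 with shControl. All 3 shSRA arrays were above all 3 shControl arrays, by a log2 fold change of 0.58 (SE 0.21, unadjusted p = 0.0104, adjusted p = 1). With the arrays paired by replicate number, as the data of this line allow, its adjusted p was 0.149.

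SRA knockdown moved 0 of the 10 genes past the test, where 0.0315% of tested probe sets were called higher and 0.042% lower by limma. Without the adjustment 1 gene was higher (Nlrc5) and 0 lower, against 1.38% and 1.42% of tested probe sets, and the nested F classification (0.241% of probe sets higher, 0.231% lower) and the fit with replicate pairs (0.325% and 0.205%) also gave 0. Of the 10 log2 fold changes 9 lay above 0, with a median of 0.17, against -0.01 over all genes. Tap2 lay below 0, and with arrays centred on their bright probe sets Tap1 did so too (-0.0039). In 4 genes (H2-K1, B2m, Tapbp and Nlrc5) all shSRA arrays were above all shControl arrays, where 5.49% of tested probe sets were. B2m and Tapbp are not among the tested probe sets. Psmb8 read 8.56, 8.58 and 8.71 with shSRA, against 8.50, 8.69 and 8.55 with shControl, and Psmb10 read 10.88, 11.10 and 11.04 with shSRA, against 10.76, 10.97 and 10.74 with shControl. In both genes the groups overlapped. Between arrays of the same replicate number, which pair in this line, 7 of the 10 genes were higher with shSRA in all 3 pairs (H2-K1, H2-D1, Psmb9, Psmb10, Nlrc5 and the untested B2m and Tapbp). Of tested probe sets 19.3% were. A call in this comparison was rare in the whole table, with 14 of 19068 probe sets.

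The test of the difference between the effects (SRA in ST2 minus shSRA in 3T3-L1) called 1 of the 10 genes lower, Psmb9, and 0 higher, where 2.07% of tested probe sets were called lower and 0.246% higher. All 10 differences lay below 0, between -1.26 and -0.07 with a median of -0.49, against 0.07 over all genes. The call of Psmb9 was lost with no variance filter (adjusted p = 0.066) and in 7 of the 12 fits that left out 1 array (adjusted p up to 0.111), those without ST2 SRA replicate 2, ST2 control replicate 1 or 3, shSRA replicate 1 or 3, and shControl replicate 2 or 3. Without ST2 control replicate 2 the test called 4 genes lower (H2-K1, H2-D1, Psmb9 and Nlrc5), with 4.97% of all tested probe sets.

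**Figure D4:**
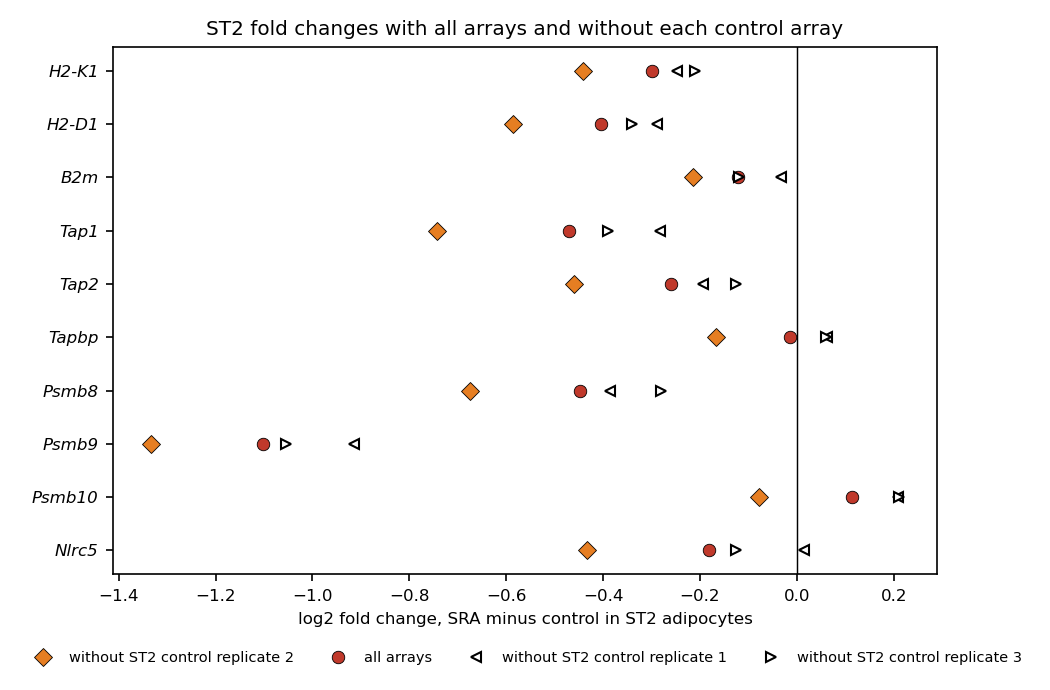
Log2 fold change of SRA minus control in ST2 adipocytes (horizontal axis) for the 10 genes with all arrays (circles), without ST2 control replicate 2 (diamonds) and without replicate 1 or 3 (open triangles). Leaving out replicate 2 moves every gene to the left, Psmb9 to -1.33 and Tap1 to -0.74, and leaving out replicate 1 or 3 moves the genes to the right, except that B2m without replicate 3 stays level with its value on all arrays.

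Several members differed between the control adipocytes of the lines. Of the 10 genes 8 were tested, and 6 of these were called higher in ST2 control than in 3T3-L1 shControl adipocytes and 0 lower. Of all tested probe sets 26.2% were called higher and 37.4% lower. Line, strain, vector and day of differentiation change together here and cannot be told apart. Of the 8 tested adipocyte markers 6 were called lower in ST2 control adipocytes and 0 higher. Of the class II and antigen-presenting cell genes 1 of 1 tested was called higher (Cd80, 0.93). Of the macrophage and blood cell markers 1 of 4 tested was (Cd68, 0.95), and 0 of either list were lower. The part of these genes in the class I differences was not tested. Psmb9 averaged 10.37 ± 0.43 in ST2 control and 6.94 ± 0.18 in 3T3-L1 shControl adipocytes (SD, n = 3 each), a difference of 3.43 (SE 0.21, adjusted p = 4e-11) or 10.8-fold. Nlrc5 averaged 8.93 ± 0.46 in ST2 control and 5.93 ± 0.23 in 3T3-L1 shControl adipocytes, an 8.03-fold difference (adjusted p = 2.29e-10). Tap1 averaged 9.74 ± 0.48 and 7.38 ± 0.16 in the same order, 5.15-fold (adjusted p = 1.18e-08). Tap2 (1.25), H2-K1 (0.90) and Psmb8 (0.87) had smaller log2 differences, and Psmb10 (-0.30) and H2-D1 (-0.27) were not called. Tapbp (-0.01) was outside the variance filter. B2m, also outside the filter, read higher by 0.48 (interval 0.21 to 0.74) without overlap. The order of the 4 group means was ST2 control, ST2 SRA, shSRA, shControl in 6 genes (H2-K1, B2m, Tap1, Psmb8, Psmb9 and Nlrc5). Within a line neighbours in that order overlapped, except the ST2 groups of Psmb9 and the 3T3-L1 groups of H2-K1, B2m and Nlrc5.

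The H2-D1 probe sets did not give 1 answer for the lines. In 3 of the 9 (1425614_x_at, 1427651_x_at and 1452544_x_at) ST2 control arrays read 12.69 to 13.84, against 5.59 to 7.87 in 3T3-L1 shControl adipocytes, with log2 differences of 7.60, 5.99 and 5.86. The other 6 differed by -0.27 to 0.73. A difference above 5 was seen in 34 of 19068 tested probe sets (0.178%). Within the lines the same 3 probe sets gave -0.20 to -0.09 for SRA minus control and -0.40 to 0.0047 for shSRA minus shControl, and none was called. For H2-K1 the 4 probe sets differed between lines by -0.13 to 1.56. All 4 H2-K1 and 7 of 9 H2-D1 probe sets carry the suffix _x_at, by which Affymetrix marks probes that also match other transcripts. Class I heavy chains are among the most variable genes between mouse strains, and the match of each probe set to the alleles of these lines was not tested, so a level set between the lines holds for a probe set and not for the gene.

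**Figure D5:**
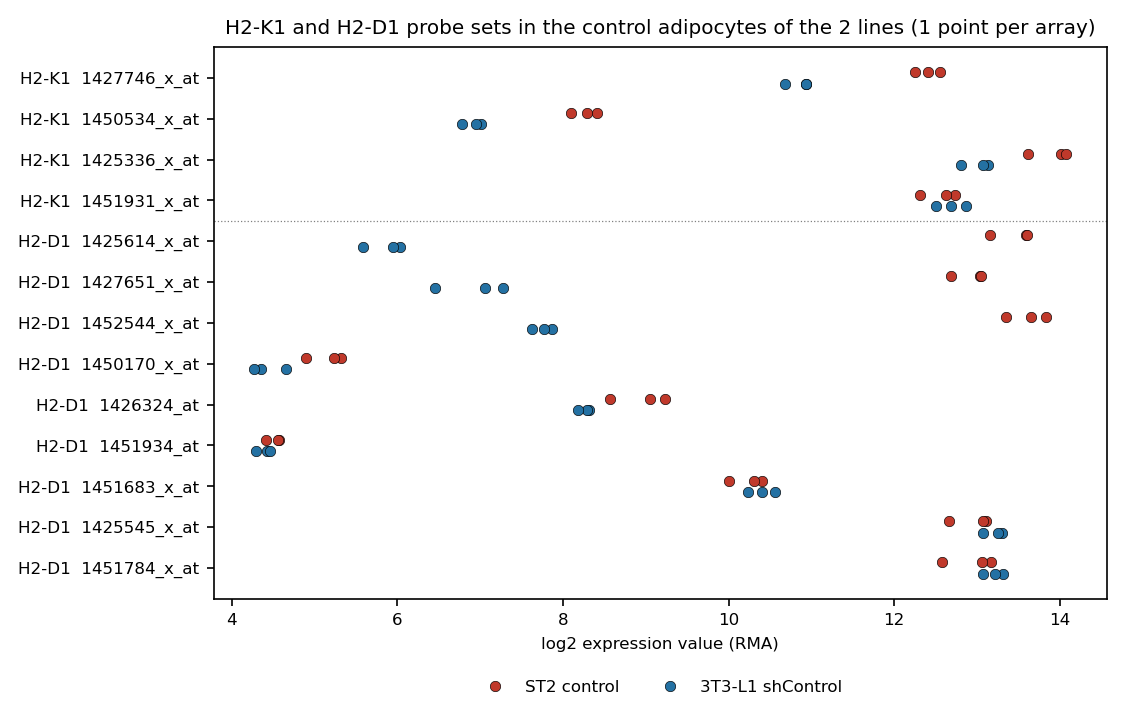
Log2 expression value (horizontal axis) of the 4 H2-K1 and 9 H2-D1 probe sets in ST2 control (red) and 3T3-L1 shControl (blue) adipocytes, 1 point per array. In 3 H2-D1 probe sets the lines lie 5.86 to 7.60 apart, while in the other 6 they differ by -0.27 to 0.73.

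Other genes of the pathway were read from lists. Of 20 other class I and class I-like genes 9 were measured. Of the 6 that were tested 1 was higher and 1 lower with SRA in ST2 adipocytes, where 2.33% of all tested probe sets were called higher and 5.65% lower. H2-M3, which presents formylated peptides, read 9.14, 8.82 and 9.30 with SRA, against 9.83, 9.55 and 9.98 in ST2 controls (log2 fold change -0.70, SE 0.18, adjusted p = 0.0153), with no overlap. Leaving out ST2 control replicate 2 gave -0.82 (adjusted p = 0.00422), and the call was lost without ST2 SRA replicate 2 or ST2 control replicate 3 (adjusted p up to 0.133). Fcgrt, the neonatal Fc receptor, pairs with β2-microglobulin and was higher by 0.58 (adjusted p = 0.0441). Its value was 0.40 (adjusted p = 0.0728) without ST2 control replicate 2, and it was called in only 2 of the 12 fits that left out 1 array. Mr1, which presents vitamin metabolites, was also lower without that array (-0.44, adjusted p = 0.0292). Of 12 measured loading, trimming and proteasome activator genes 8 were tested and 1 was higher, Pdia6, a protein disulfide isomerase of the endoplasmic reticulum (0.59, adjusted p = 0.0382), and 0 were lower. The median log2 fold change of this list was 0.27, against 0.06 over all genes. Without the adjustment 4 of its genes were higher at limma p under 0.05 and 0 lower, against 12.1% and 10.1% of tested probe sets. Pdia6 was at 0.50 (adjusted p = 0.0595) without ST2 control replicate 2 and was called in 3 of the 12 fits.

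Of 24 measured regulators of class I transcription 17 were tested, and 3 were lower with SRA and 0 higher, where 5.65% of tested probe sets were called lower. Irf7, an interferon-induced transcription factor, read 8.97, 8.60 and 9.06 with SRA, against 10.40, 9.29 and 9.65 in ST2 controls (log2 fold change -0.91, adjusted p = 0.0247). Stat2, which carries the type I interferon signal, read 8.62, 8.30 and 8.63 with SRA, against 9.92, 8.84 and 9.48 in ST2 controls (-0.90, adjusted p = 0.0122). Socs1, an interferon-induced inhibitor of JAK kinases, had a log2 fold change of -0.56 (adjusted p = 0.0279). Without ST2 control replicate 2 the values were -1.15 for Irf7 (adjusted p = 0.00862), -1.18 for Stat2 (adjusted p = 0.000615) and -0.47 for Socs1 (adjusted p = 0.023). Irf9 was then called too, at -0.79 (adjusted p = 0.00842), against -0.54 (adjusted p = 0.124) with all arrays. That gave 4 regulators lower, where 9.83% of tested probe sets were. Each of the 3 calls made with all arrays was lost in 2 or 3 of the 12 fits without 1 array (adjusted p up to 0.15). Irf7 lost it without ST2 SRA replicate 1 or 2 or ST2 control replicate 1. Stat2 lost it without ST2 SRA replicate 2 or ST2 control replicate 1, and Socs1 without any 1 of the SRA arrays. In these 3 genes, which were already called lower, the groups did not overlap, where 9.03% of tested probe sets were lower without overlap. The list's median was 0.06, as over all genes. In 3T3-L1 adipocytes 0 genes of any of the 7 lists were called, with 0 of the regulators under an unadjusted p of 0.05. Of 12 measured adipocyte markers 8 were tested and 3 were higher with SRA, where 2.33% of tested probe sets were, the glucose transporter Slc2a4 (1.08), the triglyceride enzyme Dgat2 (0.88) and the fatty acid receptor Cd36 (0.86). All 3 kept their calls in the 12 fits without 1 array. At limma p under 0.05 without the adjustment, 7 of the markers were higher and 0 lower, against 12.1% and 10.1% of tested probe sets. The median log2 fold change of the markers was 0.41, against 0.06 over all genes. The part of these markers in the class I values was not tested.

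Among themselves the members varied together across arrays. After each line's mean was subtracted, the correlation with Psmb9 over the 12 arrays was 0.87 for H2-D1, 0.87 for Tap1, 0.81 for Psmb8, 0.78 for H2-K1, 0.75 for Tap2, 0.65 for B2m, 0.48 for Nlrc5, 0.45 for Tapbp and 0.05 for Psmb10. The points share the SRA contrast and the low control array, so these are descriptions. A mean profile was made from the standardised lead probe sets of the members that passed the variance filter, so without B2m and Tapbp. Among the lead probe sets of other genes that passed it, the most alike were Pola1 (0.96), Sae1 (0.95), Tmod3 (0.95), Hdac4 (0.95) and Kctd17 (0.94), over the same 12 arrays.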

How the data were processed

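RNA of 4 groups (5 µg total RNA per array) was hybridized to 12 arrays. The deposited log2 values, 1 per probe set and array, were calculated by the authors with robust multi-array average (RMA) and were used unchanged. RMA corrects background, forces the arrays to one distribution and summarizes probes, so that uniform shifts of an array are removed and small changes are compressed. The submitters' processing notes name limma, affy and RMA, with versions not given in the sources used here. For arrays, their number limits the precision.

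Probe sets were named by the platform annotation (34958 with 1 symbol, 932 with several, 9211 with none). Probe sets with a variance above 0.05 over all arrays (19068) were fitted with limma 3.58.1 in R 4.3.3 as 4 groups, with Benjamini-Hochberg adjustment per comparison over all tested probe sets. Values of genes outside the filter come from the fit of all probe sets, with no adjusted p. The named genes are all members by their lead probe set, and of each list up to 4 called genes with the largest change or, with none called, the 2 brightest. Ptprc, Adgre1, Cd80, Laptm5, Csf1r, Cd3e, H2-DMa, Cd74, Mr1 and Irf9 were added after their values were seen. The members and the 7 lists (114 entries) were chosen with earlier results of these data known. Replicate numbers were checked as pairs by correlating the deviations of treated and control arrays. In 3T3-L1 same-numbered arrays correlated at 0.59, 0.59 and 0.38, against -0.455 to 0.0355 for different numbers, and were taken as pairs. In ST2 they correlated at 0.04, 0.27 and 0.53, against -0.444 to 0.21 for different numbers, so that pairing was not settled there. The labels say biological replicates and no more, so p-values measure the spread between these arrays. The limma fits were tested on simulated data, with noise drawn separately for each probe set and array. A shift shared by a whole array and paired arrays were not simulated. Leaving out arrays for the list genes was added after the data were seen. Alternatives were other filters, scalings, variance models, probe set choices, array weights and leaving out each array. Promoters are RefSeq windows of GRCm38.p6.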

Additional observations from a re-analysis of the deposited data

Results flagged for a closer look

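Psmb9 stood out because its change with SRA overexpression in ST2 adipocytes and its change with SRA knockdown in 3T3-L1 adipocytes differed in a test of the difference itself, by -1.26 on the log2 scale (SE 0.30, limma adjusted p = 0.0267). The call was lost with no variance filter (adjusted p = 0.066) and in 7 of 12 fits without 1 array (adjusted p up to 0.111). SRA was raised in one line and lowered in the other, and line, vector and day differ too. Groups of 3 arrays were not screened for single outlying values.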

How the results depend on the processing

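Psmb9 stayed lower with SRA in ST2 adipocytes under all 11 alternatives (log2 fold change -1.22 to -1.10) and all 12 fits without 1 array (-1.33 to -0.91). The count of genes lower in ST2 was 1 with all arrays, 3 after a second quantile normalization (8.21% of all probe sets lower), 6 with arrays centred on bright probe sets, 3 with the replicate block (8.63%), 7 with array weights, and 1 to 6 over the fits without 1 array. The weights did not converge and put 18.3 on ST2 control replicate 3. With them 1 gene was higher with shSRA (Nlrc5, adjusted p = 0.0366) and 21.9% of all probe sets were called lower in ST2. For the difference between the effects the count was 1 (2.07% of all tested probe sets lower), against 0 with no variance filter (0.681%). It was 2 after quantile normalization (3.27%), 3 with centring (4.22%) and 7 with weights (11.9%). Without 1 array it was 0 to 4 (4.97% of probe sets without ST2 control replicate 2). The line difference gave 6 to 7 genes throughout. The replicate block changed no call in 3T3-L1 adipocytes. In ST2 it added Tap1 and Psmb8, and whether the numbers pair the arrays of that line was not settled. Small values changed sign. In ST2 adipocytes Tapbp went to 0.021 (mean of probe sets) and 0.056 (highest variance), with -0.17 to 0.063 without 1 array, and Psmb10 to -0.0065 (centring) and -0.074 (weights), with -0.078 to 0.21. Nlrc5 ran between -0.43 and 0.016 without 1 array. In 3T3-L1 adipocytes H2-D1 went to -0.38 (highest variance), Tap1 to -0.0039 (centring) and -0.050 (weights), Tap2 to 0.0034 and Psmb8 to -0.018 (weights). Without 1 array the ranges were -0.077 to 0.11 for Tap1, -0.10 to 0.044 for Tap2 and -0.012 to 0.089 for Psmb8. The cause of these moves was not tested. The block could not be fitted to the line difference, and the nested F and single-line fits give neither it nor the difference between effects. Background correction was not varied.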
